A study of Mus musculus with 12 samples.

Results

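Chromatin accessibility was examined at the promoters of 10 genes of bile acid synthesis and its feedback in mouse liver, namely Cyp7a1, Cyp8b1, Cyp27a1, Cyp7b1, Nr0b2, Nr1h4, Nr5a2, Baat, Slc27a5 and Akr1d1. The genes were chosen by symbol, and each was represented by the promoter with the highest mean CPM (counts scaled to library size) over all 12 libraries. All 10 symbols were found among the 25124 symbols and 43511 promoters of the deposited table, and all 10 passed the filter on low counts, which left 41908 promoters. The libraries were made by ATAC-seq, an assay in which the Tn5 transposase cuts and tags open DNA. The first group received pregnenolone 16α-carbonitrile (PCN) at 100 mg/kg, the second received atorvastatin at 10 mg/kg, and the control group received the vehicle, distilled water. Each group had 4 libraries. All mice were wild-type C57BL/6N males of 19 to 20 weeks on standard chow, were dosed by gavage over 4 days and were fasted for 12 h before the livers were taken. Groups of 9 to 10 mice were treated, and the labels do not say whether a library came from a single mouse, so p-values measure only the spread between these libraries.

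Bile acids are made from cholesterol in hepatocytes. The classic pathway starts with CYP7A1, the alternative pathway with CYP27A1 followed by CYP7B1, and CYP8B1 sets the share of cholic acid among the products. Bile acids returning to the liver bind FXR, the nuclear receptor encoded by Nr1h4, which induces the corepressor SHP (Nr0b2), and SHP in turn restrains activators of Cyp7a1 and Cyp8b1 such as LRH-1 (Nr5a2). PCN activates PXR, the pregnane X receptor of the mouse (gene Nr1i2), and PXR activation is known to lower Cyp7a1 expression in mouse liver. Atorvastatin is a statin and blocks cholesterol synthesis at HMG-CoA reductase.

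Promoter totals ran between 4872850.5 and 10021771.5 counts in PCN libraries, between 4218336.5 and 15336000.5 in atorvastatin libraries and between 1679054 and 10493197 in control libraries. Control 3 and atorvastatin 3 stood apart, with median correlations across promoters of 0.698 and 0.744 with the other libraries, against 0.897 to 0.966 for the remaining 10. The fold changes of the 10 genes against control are also given without both. The 10 genes held 3 to 1218.5 counts each per library. As a check of the tissue, the 6 measured hepatocyte marker promoters had a median level of 44.7 CPM, and 4 promoters of genes that liver does not use, such as Ins2 and Myod1, had a median of 7.54 CPM. These levels are not corrected for promoter width, which the table does not give. In bulk tissue, fewer cells of a type and less open chromatin per cell cannot be told apart.

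In PCN livers the promoter level was higher than in control livers for all 10 genes, by log2 differences of 0.09 (Nr1h4, which lay below 0 with library totals or loess offsets as scaling) to 0.78 (Nr5a2), but no gene passed the test. The largest differences belonged to Nr5a2, Nr0b2 and Slc27a5, with and without control 3 and atorvastatin 3. With edgeR's quasi-likelihood test and Benjamini-Hochberg adjustment over all promoters, 0 of 10 genes were called at an adjusted p of 0.05, against 0% of all 41908 promoters, and the lowest adjusted p among the genes was 0.92. At an unadjusted p under 0.05 there were 3 genes, Nr5a2 (unadjusted p = 0.023), Slc27a5 (unadjusted p = 0.031) and Nr0b2 (unadjusted p = 0.035), against 3.75% of all promoters. DESeq2 and limma-voom also called 0 of the 10 genes. The share of promoters with a log2 fold change above 0 was 51.0% over the whole table, and the median was 0.39 for the 10 genes and 0.01 for all promoters. A single gene, Slc27a5, had PCN and control libraries that did not overlap, against 2.07% of all promoters with all PCN libraries above all control libraries.

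The size of these differences depended on control 3, which was the lowest of all 12 libraries for 7 of the 10 genes. Without control 3 and atorvastatin 3, the median log2 difference between PCN and control livers was 0.20, and 9 of 10 genes were above 0. The same 3 genes then had an unadjusted p under 0.05. Over all promoters in that setting, 48.3% were above 0, and 1890 of 41915 had an unadjusted p under 0.05. Leaving out 1 library at a time, the number of genes with an unadjusted p under 0.05 was 0 without PCN 4, without control 1 or without control 3, and 1 without PCN 2.

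Atorvastatin livers also had higher promoter levels than control livers for 9 of the 10 genes (Cyp27a1 lay below 0 under the other scalings), while the remaining gene, Baat, differed by -0.015 on the log2 scale. Both comparisons use the same control libraries. Again 0 of 10 genes were called by edgeR, against 0% of all promoters, and 0 genes had an unadjusted p under 0.05, against 1.93% of all promoters. The largest difference was that of Nr5a2, at 0.60 ± 0.32 (log2 fold change ± SE, adjusted p = 1), and 0.38 ± 0.21 without control 3 and atorvastatin 3. The median over the 10 genes was 0.22, against 0.05 over all promoters, of which 57.3% were above 0. Without control 3 and atorvastatin 3, 6 of the 10 genes were above 0, the median was 0.11, and Slc27a5 had an unadjusted p of 0.035. In that setting 47.8% of all promoters were above 0, and 1597 of 41915 had an unadjusted p under 0.05.

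Set directly against each other, PCN livers had higher levels than atorvastatin livers for 9 of the 10 genes (Nr1h4 lay below 0 under the other scalings), and lower ones for Cyp8b1. None of these differences passed the test (0 of 10 called, against 0% of all promoters), and 0 genes had an unadjusted p under 0.05, against 0.730% of all promoters. Differences ran from -0.07 (Cyp8b1) to 0.33 (Baat) with a median of 0.18, against a median of -0.02 over all promoters, of which 47.9% were above 0. All 10 of the 95% intervals included 0. The narrowest was that of Nr1h4, -0.44 to 0.47, and the widest that of Cyp7b1, -0.42 to 1.06. The differences ran from -0.12 (Cyp8b1) to 0.22 (Nr0b2), with a median of 0.14, without control 3 and atorvastatin 3.

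**Figure D1:**
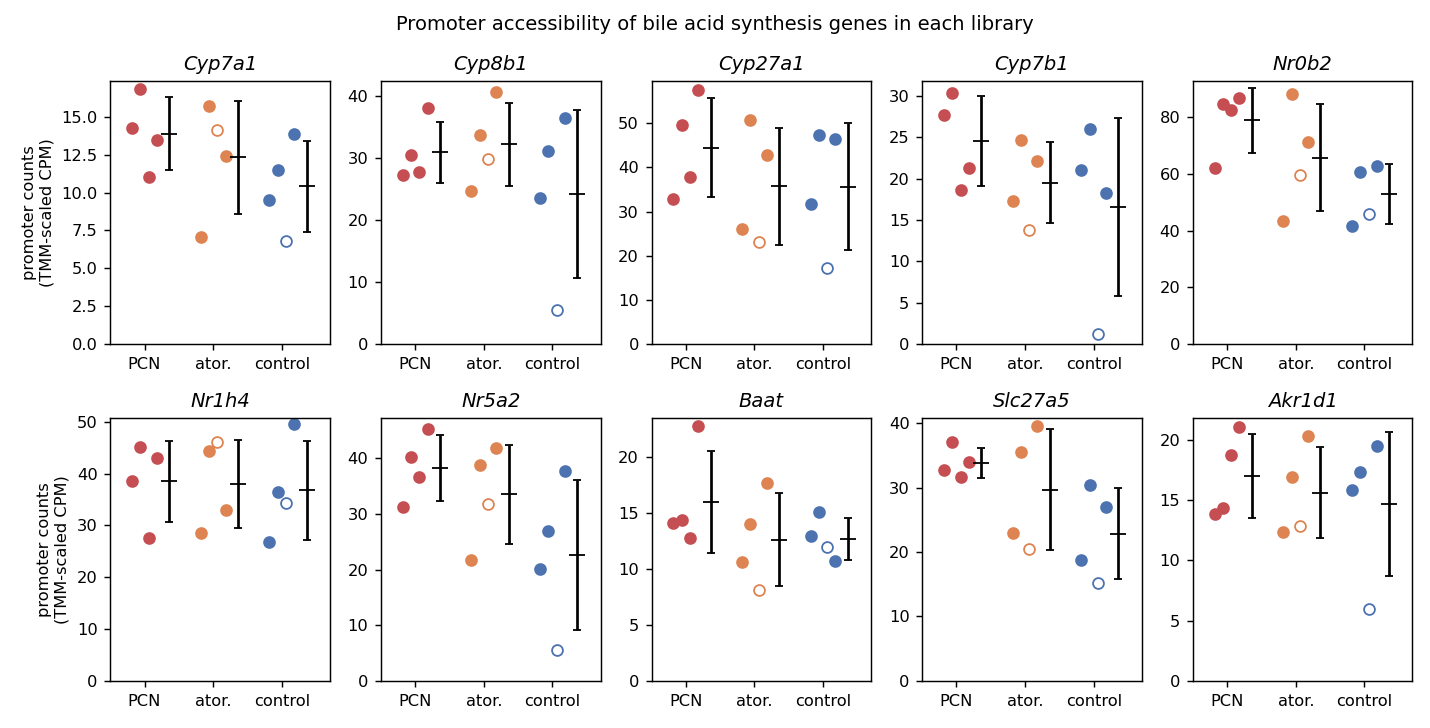
Promoter level in TMM-scaled CPM (vertical axis, from 0, a scale per gene) of the 10 genes in each PCN, atorvastatin and control library; points are libraries, open points are atorvastatin 3 and control 3, and the black bar is the mean with the SD (n = 4). Groups overlapped for 9 of 10 genes between PCN and control, and control 3 was the lowest library for 7 genes.

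Cyp7a1, the rate-limiting enzyme of the classic pathway, had 14.2, 16.8, 11.0 and 13.45 CPM at its promoter in PCN libraries 1 to 4. Atorvastatin libraries had 7.08, 15.7, 14.1 and 12.4 CPM, and control libraries had 9.53, 11.5, 6.78 and 13.8 CPM. The groups overlapped: control 4 lay above the PCN libraries 3 and 4, and atorvastatin 1 lay close to control 3 at the bottom. The log2 fold change was 0.42 ± 0.34 between PCN and control livers (SE, 95% interval -0.24 to 1.09, adjusted p = 0.92) and 0.27 ± 0.34 between atorvastatin and control livers (adjusted p = 1). A PCN mean below the control mean was thus not seen, and a log2 decrease beyond -0.24 lay outside the interval. The known effect of PXR activation is on Cyp7a1 expression, whereas these values are accessibility. The promoter averaged 12.2 CPM, between the 7.54 CPM median of the unused-gene promoters and the 14.1 CPM of Ins2 among them. The part of background in its level and in these differences was not tested. Both differences were smaller without control 3 and atorvastatin 3, at 0.31 and 0.11. The PCN mean was 13.9 ± 2.41 CPM (SD, n = 4), against a control mean of 11.6 ± 2.15 CPM without control 3 (SD, n = 3).

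Cyp8b1, the sterol hydroxylase that directs synthesis toward cholic acid, differed from the other members in having its highest mean in atorvastatin livers. It had 27.3, 30.5, 27.8 and 38.1 CPM in PCN libraries, 24.8, 33.7, 29.8 and 40.7 CPM in atorvastatin libraries, and 23.6, 31.2, 5.58 and 36.4 CPM in control libraries. Control 3 was far below every other library, and the other control libraries lay within the range of the treated ones or just under it. The log2 difference was 0.35 ± 0.31 for PCN against control (adjusted p = 0.92) and 0.42 ± 0.31 for atorvastatin against control (adjusted p = 1). The PCN difference was 0.07 and the atorvastatin difference 0.19 without control 3 and atorvastatin 3.

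The bases upstream of the Cyp8b1 start are shown because they were the only member window with a match to an HNF4A core motif. The window, from RefSeq on GRCm38.p6, is chr9:121916306-121916555 on the minus strand, written toward the start; capitals mark CAAAGTCCA and TATAAA.

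Cyp8b1: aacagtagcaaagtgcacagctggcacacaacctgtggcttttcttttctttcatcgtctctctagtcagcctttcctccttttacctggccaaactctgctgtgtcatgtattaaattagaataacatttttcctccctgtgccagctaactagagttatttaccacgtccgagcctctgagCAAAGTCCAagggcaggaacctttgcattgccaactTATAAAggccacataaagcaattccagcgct

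CAAAGTCCA stood 67 to 59 bases and TATAAA 31 to 26 bases before the start, and the matches do not overlap. On both strands, CAAAGTCCA was in 0.384% and TATAAA in 12.4% of the 32851 windows of this length in the RefSeq table. Windows of 6 of the 10 genes were in that table, 7 windows in all, and TATAAA was in 3 of these. The LRH-1 core AAGGTCA, a further HNF4A core written CAAAGTTCA, the FOXA core TGTTTAC and the inverted repeat bound by FXR matched 0 of the 7 windows, and these were in 4.08%, 0.335%, 3.17% and 0.00609% of all windows.

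Cyp27a1 encodes the mitochondrial sterol side-chain hydroxylase that opens the alternative pathway and also shortens the side chain in the classic one. Its promoter had 32.8, 49.7, 37.9 and 57.5 CPM in PCN libraries, 26.1, 50.7, 23.1 and 42.9 CPM in atorvastatin libraries, and 31.6, 47.4, 17.1 and 46.5 CPM in control libraries. Each group held high and low libraries, and all groups overlapped. The difference was 0.32 ± 0.29 for PCN (adjusted p = 0.92) and 0.01 ± 0.29 for atorvastatin (adjusted p = 1), both against control. The atorvastatin value was the nearest to 0 of the 10 genes together with that of Baat, and its sign turned under 6 other scalings, filters or tests. They were 0.11 and -0.03 without control 3 and atorvastatin 3.

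Cyp7b1, the oxysterol hydroxylase of the alternative pathway, had 27.7, 30.3, 18.6 and 21.3 CPM in PCN livers. The atorvastatin libraries had 17.3, 24.7, 13.8 and 22.2 CPM, and the control libraries had 21.1, 25.9, 1.20 and 18.2 CPM. Control 3 lay far below every other library and rested on 3 counts, while the other 3 control libraries lay within the range of the treated ones. The PCN difference of 0.50 ± 0.39 (adjusted p = 0.92) was 0.14 without control 3 and atorvastatin 3, and the atorvastatin difference of 0.18 ± 0.39 (adjusted p = 1) was -0.04 without them.

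Akr1d1 encodes the reductase that reshapes the steroid ring after the first hydroxylations. It had 13.9, 14.3, 18.7 and 21.1 CPM in PCN libraries, 12.4, 16.9, 12.9 and 20.4 CPM in atorvastatin libraries and 15.8, 17.4, 5.98 and 19.5 CPM in control libraries. The promoter averaged 15.6 CPM, against 14.1 CPM for Ins2 among the unused-gene promoters, whose median was 7.54 CPM. The part of background in its level was not tested. Leaving aside control 3, the control libraries lay inside the range of both treated groups. The order of the groups turned with the measure: by mean it was PCN, atorvastatin, control, and by median control, PCN, atorvastatin. The PCN difference of 0.21 ± 0.30 (adjusted p = 0.93) was -0.01 without control 3 and atorvastatin 3, and the atorvastatin difference of 0.10 ± 0.30 (adjusted p = 1) was -0.02.

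Slc27a5, the bile acyl-CoA synthetase that activates bile acids before conjugation, was the most even gene among PCN libraries, with 32.8, 37.1, 31.6 and 33.9 CPM. Atorvastatin libraries had 23.0, 35.6, 20.4 and 39.6 CPM, and control libraries had 18.8, 30.4, 15.2 and 27.0 CPM. All 4 PCN libraries lay above all 4 control libraries, whereas a pair of atorvastatin libraries lay above the controls and a pair among them. The coefficient of variation was 6.89% in PCN livers, 31.6% in atorvastatin livers and 31.0% in control livers. The PCN difference was 0.57 ± 0.25 (95% interval 0.08 to 1.05, unadjusted p = 0.031, adjusted p = 0.92), and 0.44 ± 0.19 without control 3 and atorvastatin 3. For atorvastatin it was 0.39 ± 0.25 (adjusted p = 1), and 0.42 ± 0.20 without them.

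Baat, the enzyme that joins bile acids to taurine or glycine, had control libraries between 10.7 and 15.1 CPM. The promoter averaged 13.7 CPM, between the 7.54 CPM median of the unused-gene promoters and the 14.1 CPM of Ins2 among them. The part of background in its level was not tested. It had 14.1, 14.3, 12.8 and 22.8 CPM in PCN libraries, 10.6, 14.0, 8.13 and 17.7 CPM in atorvastatin libraries, and 12.9, 15.1, 12.0 and 10.7 CPM in control libraries. PCN 4 alone stood above every other library, and without it the PCN difference of 0.31 ± 0.31 (adjusted p = 0.92) was 0.10. The atorvastatin difference was -0.015 ± 0.30 (adjusted p = 1), with libraries on both sides of the control mean, and it was 0.12 without control 3 and atorvastatin 3, where the PCN difference was 0.26.

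Among the regulators, Nr1h4, the gene of the bile acid receptor FXR, showed the smallest difference between PCN and control livers. The promoter had 38.5, 45.1, 27.6 and 43.0 CPM in PCN libraries, 28.5, 44.4, 46.0 and 33.02 CPM in atorvastatin libraries and 26.7, 36.5, 34.3 and 49.6 CPM in control libraries. The highest and the lowest of all 12 libraries were both controls. Its differences were 0.09 ± 0.24 for PCN (95% interval -0.38 to 0.56, adjusted p = 0.96) and 0.08 ± 0.24 for atorvastatin (interval -0.39 to 0.54, adjusted p = 1), and 0.10 and -0.02 without control 3 and atorvastatin 3. The table held a further promoter of Nr1h4 under 2 transcripts with the same counts, at 24.1 ± 4.52 CPM in PCN livers and 18.5 ± 5.30 CPM in control livers (SD, n = 4), a difference of 0.36 ± 0.24 (adjusted p = 0.92).

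Nr0b2, the gene of the corepressor SHP, had 61.9, 84.4, 82.4 and 86.5 CPM in PCN libraries. Atorvastatin libraries had 43.4, 88.0, 59.6 and 71.3 CPM, and control libraries had 41.7, 60.7, 45.9 and 62.8 CPM. PCN libraries 2, 3 and 4 exceeded every control library, and PCN 1 lay between the control libraries 2 and 4. The mean was 78.8 ± 11.4 CPM in PCN livers, against 52.8 ± 10.6 CPM in control livers (SD, n = 4), a log2 difference of 0.58 ± 0.26 (95% interval 0.07 to 1.10, unadjusted p = 0.035, adjusted p = 0.92). Of the 3 genes with an unadjusted p under 0.05, it moved least when control 3 and atorvastatin 3 were left out, to 0.54 ± 0.26. For atorvastatin the difference was 0.32 ± 0.26 (adjusted p = 1), and again 0.32 without them.

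Nr5a2, the gene of the activator LRH-1, showed the largest difference from control in both treated groups with all 12 libraries, but not when 2 were left out: without control 3 and atorvastatin 3, Nr0b2 was above it for PCN and Slc27a5 for atorvastatin. It had 31.2, 40.2, 36.6 and 45.3 CPM in PCN libraries, 21.7, 38.7, 31.7 and 41.9 CPM in atorvastatin libraries, and 20.1, 27.0, 5.58 and 37.7 CPM in control libraries. PCN libraries exceeded control libraries except for control 4, which lay within their range. The PCN difference was 0.78 ± 0.32 (95% interval 0.15 to 1.42, unadjusted p = 0.023, adjusted p = 0.92), and without control 3 and atorvastatin 3 it was 0.52 ± 0.20, against 0.54 for Nr0b2. The further promoter of Nr5a2 in the table had 18.4 ± 1.47 CPM in PCN livers and 13.0 ± 4.44 CPM in control livers (SD, n = 4), a difference of 0.44 ± 0.27 (adjusted p = 0.92).

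Upstream windows of Nr0b2 and Nr5a2 are shown because these regulators had the largest differences between PCN and control livers. They come from RefSeq on GRCm38.p6 and end just before the start: chr4:133553126-133553375 on the plus strand for Nr0b2, and chr1:136953631-136953880 and chr1:136960449-136960698 on the minus strand for the inner and the outer start of Nr5a2. Capitals mark TATAAA, or TTTATA where the match is on the opposite strand. The table gives no positions, so the windows of Nr5a2 could not be paired with its promoters there.

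Nr0b2: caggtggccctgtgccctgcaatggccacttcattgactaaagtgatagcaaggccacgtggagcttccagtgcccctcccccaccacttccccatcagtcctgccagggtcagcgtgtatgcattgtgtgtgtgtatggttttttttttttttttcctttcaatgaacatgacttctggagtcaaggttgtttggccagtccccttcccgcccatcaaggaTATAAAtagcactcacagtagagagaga

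Nr5a2, inner start: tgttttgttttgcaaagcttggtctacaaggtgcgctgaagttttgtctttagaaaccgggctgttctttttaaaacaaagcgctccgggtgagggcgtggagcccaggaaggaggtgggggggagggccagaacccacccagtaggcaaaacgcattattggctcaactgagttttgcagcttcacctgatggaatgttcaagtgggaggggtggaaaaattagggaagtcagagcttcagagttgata

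Nr5a2, outer start: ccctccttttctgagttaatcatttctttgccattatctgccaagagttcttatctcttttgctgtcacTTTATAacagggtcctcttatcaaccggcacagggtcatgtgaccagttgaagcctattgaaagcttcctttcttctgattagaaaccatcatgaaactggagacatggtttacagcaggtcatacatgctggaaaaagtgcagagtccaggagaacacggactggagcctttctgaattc

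In Nr0b2, TATAAA stood 28 to 23 bases before the start. The outer window of Nr5a2 had its match on the opposite strand, 181 to 176 bases before the start, and the inner one had none.

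**Figure D2:**
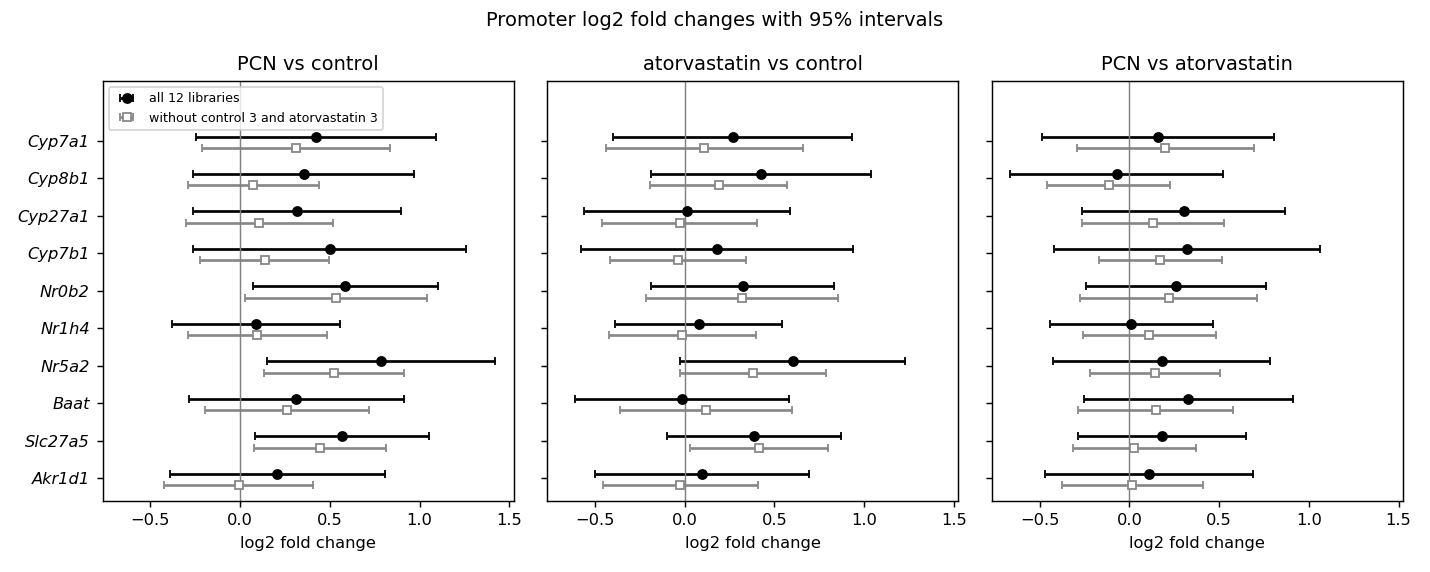
Log2 fold change (horizontal axis) of each promoter for PCN vs control, atorvastatin vs control and PCN vs atorvastatin; bars are 95% intervals, filled symbols use all 12 libraries and open symbols leave out control 3 and atorvastatin 3. With all libraries, 3 of the 10 PCN vs control intervals lie above 0 (Nr0b2, Nr5a2 and Slc27a5), and none of the intervals of the other comparisons excludes 0.

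The 10 genes tended to stand high or low together within a library. Centred on each promoter's own mean, the median log2 level of the 10 genes was 0.07, 0.41, 0.09 and 0.46 in PCN libraries 1 to 4, -0.35, 0.38, -0.16 and 0.39 in atorvastatin libraries, and -0.25, 0.15, -0.97 and 0.29 in control libraries. In PCN 4 and in atorvastatin 2, 10 of 10 genes were above their own mean, and in control 3 none was. The same medians over all tested promoters stayed between -0.08 and 0.12. Atorvastatin libraries thus split into 2 high and 2 low ones for these genes. Control libraries spread from -0.97 to 0.29, and from -0.25 to 0.29 when control 3 is left aside, which is narrower than the atorvastatin libraries.

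**Figure D3:**
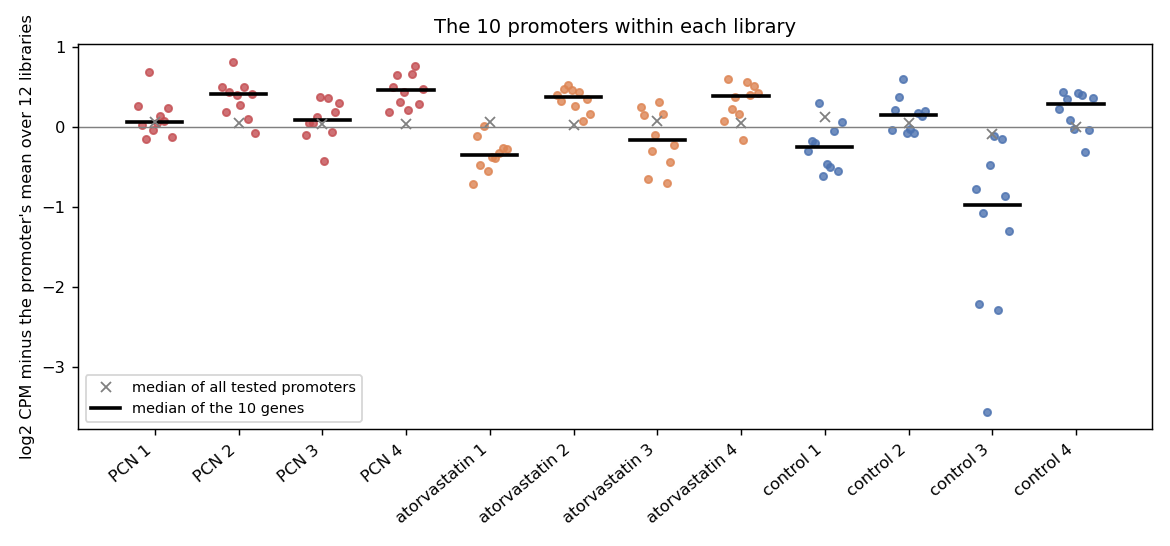
Log2 CPM of each of the 10 promoters minus its mean over the 12 libraries (vertical axis) in each library; bars are the medians of the 10 genes and crosses the medians of all tested promoters. Control 3 has the lowest median, -0.97, and PCN 4 the highest, 0.46.

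Marker promoters of the cell types were compared between the same groups. Promoters of the 6 hepatocyte markers summed to 246 to 396 CPM (median 288) in PCN libraries, 199 to 374 CPM (median 304) in atorvastatin libraries and 137 to 328 CPM (median 230) in control libraries. Of them, 5 of 6 were above 0 for PCN against control, with a median log2 difference of 0.38, close to the 0.39 of the 10 genes. The 5 stellate cell markers summed to 33.3 to 55.0 CPM in PCN, 35.3 to 68.6 CPM in atorvastatin and 51.2 to 87.5 CPM in control libraries, and 0 of 5 were above 0 for PCN, with a median of -0.63. For PCN against control, 0 of 5 endothelial, 1 of 5 Kupffer cell, 2 of 5 cholangiocyte, 2 of 5 lymphocyte and 1 of 4 unused-gene promoters were above 0. For atorvastatin against control, 5 of 6 hepatocyte, 1 of 5 stellate cell and 1 of 5 Kupffer cell markers were above 0. The other atorvastatin counts were 5 of 5 cholangiocyte, 4 of 5 lymphocyte, 3 of 5 endothelial and 3 of 4 unused-gene promoters. Over all promoters, 51.0% were above 0 for PCN and 57.3% for atorvastatin. No marker had 0 counts in every library, and the part of cell composition or of background in the results was not tested.

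Distal regions gave a second readout that the choice of genes did not use. Within the gene or 50 kb of it, the enhancer table held 846 regions for the 10 genes, of which 601 were tested. Many regions overlap and form 108 separate loci, so regions are not independent of each other. Of 406518 enhancer regions in all, 406433 fell into 12 width classes, and in each class a different library had the highest relative counts. Classes led by a control library held 6587 to 22662 regions, and those led by a treated library 21493 to 100767. How the regions were chosen is not given in the sources used here. The part of this in the shares above 0 was not tested. No region was called by edgeR in any comparison (0 of 601, against 0% of 182115 enhancers), and 14, 12 and 1 had an unadjusted p under 0.05 for PCN against control, atorvastatin against control and PCN against atorvastatin, against 1.93%, 2.39% and 0.465% of all enhancers.

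For PCN against control, 70.2% of the regions near these genes had a log2 fold change above 0, against 62.0% of all enhancers, with a median of 0.27 against 0.17. The highest shares were near Akr1d1 (89.6%), Nr1h4 (83.1%) and Nr0b2 (79.7%), and the lowest near Slc27a5 (51.4%). Nr1h4 thus had the largest median among its distal regions, 0.72, and the smallest difference at the promoter used here. Its further promoter differed by 0.36, so the contrast holds only for the promoter of highest level. Without control 3 and atorvastatin 3, the share for the 10 genes was 54.5%, against 51.3% of all enhancers. For atorvastatin against control the share was 59.2%, against 58.4% of all enhancers, and 51.8%, against 50.9%, without these libraries. For PCN against atorvastatin it was 57.9%, against 55.4% of all enhancers. Near Cyp7a1, 58.3% of 60 regions were above 0 for PCN and 43.3% for atorvastatin, and both values share the same controls.

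**Figure D4:**
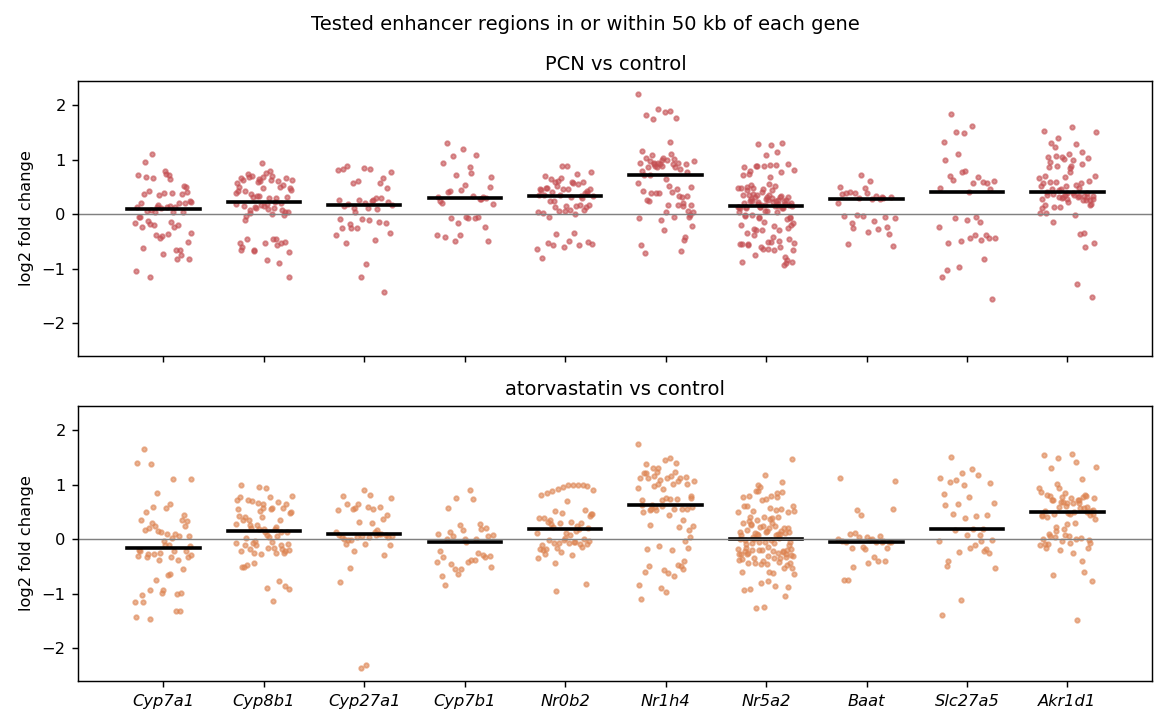
Log2 fold change (vertical axis) of the 601 tested enhancer regions in or within 50 kb of each gene, PCN vs control above and atorvastatin vs control below; points are regions, many of which overlap, and bars are medians. Regions near Nr1h4 and Akr1d1 have medians of 0.72 and 0.41 for PCN and of 0.63 and 0.49 for atorvastatin, and those near Slc27a5 a PCN median of 0.41.

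For each gene the region with the highest mean level was examined, with mm10 coordinates as deposited. All 10 of these regions were of the width class of 182 bases (end minus start). In that class atorvastatin 3 had the highest relative counts of the 12 libraries. CPM is not corrected for width, and the part of either in the choice of regions was not tested. Regions overlapping a named region cover many of the same bases in the same libraries, so their signs are not separate evidence. The Nr1h4 region lay inside the gene at chr10:89458804-89458986 and had 20.6, 13.1, 13.1 and 9.68 CPM in PCN libraries, 11.9, 12.6, 23.5 and 12.9 CPM in atorvastatin libraries and 8.76, 11.7, 0 and 7.60 CPM in control libraries. Only PCN 4 of the treated libraries lay within the range of the controls. The differences from control were 0.97 ± 0.55 for PCN (adjusted p = 1) and 1.07 ± 0.54 for atorvastatin (adjusted p = 1), and 8 of 8 overlapping regions were above 0 in both comparisons. Without control 3, at 0, and atorvastatin 3, the highest library, the differences were 0.60 ± 0.30 and 0.41 ± 0.32.

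The Cyp27a1 region, at chr1:74719381-74719563 inside the gene, had 16.1, 17.4, 13.9 and 16.5 CPM in PCN libraries, 9.41, 17.2, 14.7 and 21.0 CPM in atorvastatin libraries and 10.3, 11.7, 3.78 and 11.4 CPM in control libraries. All PCN libraries exceeded all control libraries, as 3.64% of all enhancers did, and atorvastatin 1 lay among the controls. Its differences were 0.77 ± 0.38 for PCN (adjusted p = 1) and 0.76 ± 0.38 for atorvastatin (adjusted p = 1), and 9 of 9 overlapping regions were above 0 in both. Both were lower without control 3 and atorvastatin 3, at 0.56 and 0.61.

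The region of Cyp7a1 ran the other way from its promoter. At chr4:6262871-6263053, 2559 bases outside the gene, it had 7.63, 11.4, 5.44 and 6.45 CPM in PCN, 4.95, 8.32, 11.2 and 7.10 CPM in atorvastatin and 9.02, 7.17, 9.72 and 14.3 CPM in control libraries. The groups overlapped, and the differences were -0.34 ± 0.44 for PCN (adjusted p = 1) and -0.29 ± 0.43 for atorvastatin (adjusted p = 1), or -0.26 and -0.37 without control 3 and atorvastatin 3. Of 8 overlapping regions, 0 were above 0 in either comparison.

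Likewise the Nr5a2 region, chr1:136925964-136926146 inside the gene, had 12.3, 12.0, 7.88 and 14.3 CPM in PCN, 11.4, 13.3, 14.0 and 19.5 CPM in atorvastatin and 12.4, 14.7, 17.3 and 30.4 CPM in control libraries. Most PCN libraries lay below the controls, and PCN 4 lay between control 1 and control 2. The difference was -0.65 ± 0.36 for PCN (adjusted p = 1) and -0.31 ± 0.36 for atorvastatin (adjusted p = 1), or -0.575 and -0.19 without control 3 and atorvastatin 3. Of 10 overlapping regions, 0 were above 0 in either comparison, whereas both promoters of this gene were above 0. Among all 119 tested regions near Nr5a2, 63.9% were above 0 for PCN, against 62.0% of all enhancers. For atorvastatin 49.6% were, against 58.4%. The opposite direction thus holds for the named region and those overlapping it.

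The other 6 regions had differences between -0.44 (Slc27a5, chr7:12949580-12949762) and 0.44 (Cyp8b1, chr9:121903705-121903887) for PCN against control, each with an SE of 0.32 to 0.70. Those of Akr1d1 (chr6:37540168-37540350, inside the gene) and Nr0b2 (chr4:133557450-133557632, 764 bases outside it) differed by 0.34 ± 0.36 and 0.16 ± 0.32. The region of Baat (chr4:49485577-49485759) differed by 0.32 ± 0.57 and that of Cyp7b1 (chr3:18162902-18163084, inside the gene) by 0.18 ± 0.70. The same PCN values without control 3 and atorvastatin 3 were -0.30 for Slc27a5, 0.13 for Cyp8b1, 0.10 for Akr1d1, 0.16 for Nr0b2, -0.02 for Baat and -0.17 for Cyp7b1. Control 3 had 0 counts in 4 of the 10 regions, those of Cyp8b1, Cyp7b1, Nr1h4 and Baat, where a count of 0 allows a level of up to 1.62 CPM (3 counts, counting error only).

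Other genes of the pathway were read from 3 lists. Of 12 further synthesis enzymes, 0 were called in either direction and 10 were above 0 for PCN against control, with a median of 0.26. Over all promoters, 0% were called for either drug, and 51.0% were above 0 for PCN and 57.3% for atorvastatin. With edgeR, 1 of the 12 had an unadjusted p under 0.05 for PCN, against 3.75% of all promoters. For atorvastatin 0 did, against 1.93%. Hsd17b4 (0.54 ± 0.24), a peroxisomal enzyme of side-chain shortening, and Cyp2c70 (0.48 ± 0.38), which makes muricholic acids in mice, were highest, and Cyp39a1 (-0.12 ± 0.24) and Hsd3b7 (-0.00129 ± 0.23) were lowest. For atorvastatin against control 9 of 12 were above 0, with a median of 0.07, between Cyp39a1 (-0.18 ± 0.24) and Cyp46a1 (-0.10 ± 0.26) at the bottom and Ch25h (0.66 ± 0.56) and Hsd17b4 (0.48 ± 0.24) at the top. The medians were 0.23 and 0.15 without control 3 and atorvastatin 3. Then Cyp2c70 was at 0.26 for PCN, and for atorvastatin Ch25h was at 0.09, Cyp46a1 at 0.24 and Cyp39a1 at -0.02. With all libraries, Ch25h averaged 6.94 CPM in atorvastatin and 4.25 CPM in control livers. Both means lay below the 7.54 CPM median of the unused-gene promoters.

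Of 16 regulators, 0 were called and 12 were above 0 for PCN, with a median of 0.25. Over all promoters, 0% were called for either drug, and 51.0% were above 0 for PCN and 57.3% for atorvastatin. With edgeR, 0 of the 16 had an unadjusted p under 0.05 for either drug, against 3.75% and 1.93% of all promoters. The fatty acid receptor Ppara (0.54 ± 0.33) and the coactivator Ppargc1a (0.52 ± 0.35) were highest, and Prox1 (-0.05 ± 0.27) and Nr1i2 (-0.30 ± 0.29), the gene of PXR itself, were lowest. In 2 of the 16 genes, Mafg (0.46 ± 0.26) and Ncor1 (0.41 ± 0.23), which were chosen after their values were seen, PCN libraries lay above all control libraries, against 2.07% of all promoters. For atorvastatin 11 of 16 were above 0, with a median of 0.19, between Nr1i2 (-0.53 ± 0.29) and Klb (-0.42 ± 0.31) and, at the top, Fgf15 (0.54 ± 0.52), a gut hormone gene that is also among the 4 unused-gene promoters, and Hnf4a (0.40 ± 0.32). The order depended on control 3 and atorvastatin 3. Without them the medians were 0.15 for PCN and 0.25 for atorvastatin; for PCN Ppargc1a was at 0.23, below Fgfr4 at 0.46 and Foxa2 at 0.43, with Prox1 at 0.14 and Nr1i2 at 0.18. For atorvastatin Fgf15 was then at 0.22, Hnf4a at 0.10, Klb at -0.13 and Nr1i2 at 0.03. In that setting Gpbar1 was lowest for both drugs, at -0.40 for PCN and -0.50 for atorvastatin. Fgfr4 was highest for both, at 0.46 and 0.45.

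Among 14 bile acid and sterol transporters, 0 were called and 9 were above 0 for PCN, with a median of 0.09. Over all promoters, 0% were called for either drug, and 51.0% were above 0 for PCN and 57.3% for atorvastatin. With edgeR, 3 of the 14 had an unadjusted p under 0.05 for PCN (Abcc2, Abcg5 and Abcg8), against 3.75% of all promoters. Abcg5 and Abcg8 had nearly the same levels, at 53.9 and 54.4 CPM in PCN and 35.2 and 34.8 CPM in control livers. Promoter positions are not given, so these genes may not be separate evidence. For atorvastatin 0 did, against 1.93%. Slc51b (0.95 ± 0.53), a subunit of the basolateral bile acid exporter, and Abcc2 (0.64 ± 0.27), a canalicular exporter of conjugates, were highest, and Slc51a (-0.89 ± 0.68), the partner subunit of Slc51b, and Abcc4 (-0.15 ± 0.28) were lowest. For atorvastatin 5 of 14 were above 0, with a median of -0.06, between the uptake carriers Slco1a1 (-0.41 ± 0.36) and Slco1b2 (-0.24 ± 0.34) and, at the top, Slc51b (0.92 ± 0.53) and the sterol exporter Abcg8 (0.43 ± 0.27). The medians without control 3 and atorvastatin 3 were 0.05 for PCN and 0.07 for atorvastatin, and the atorvastatin median thus changed sign. Slc51b was then at 0.53 for PCN and 0.56 for atorvastatin. Slc51a was then lowest for both drugs, at -0.37 for PCN and -0.76 for atorvastatin, and Slco1b2 was at -0.41 for atorvastatin. With all libraries, Slc51b averaged 12.6 CPM in PCN and 6.05 CPM in control livers, and Slc51a 3.69 and 7.00 CPM. The unused-gene promoters had a median of 7.54 CPM, and the part of background in these differences was not tested. Adjusted p values over all promoters were at least 0.92 for every gene of these lists in the PCN comparison.

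The promoters whose pattern over the 12 libraries was most like that of Cyp7a1 were H2-K1, Sgk2 and Ctcflos. Their centred log2 levels differed from those of Cyp7a1 by a mean absolute 0.10, 0.12 and 0.13, against a median of 0.46 over all promoters. As they were picked by this same measure, values below the median follow from the choice and show no shared control.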

How the data were processed

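Livers were profiled by ATAC-seq in 12 libraries of 3 groups, 100000 nuclei each, with tagmentation for 45 min at 37 °C per the labels' protocols. The authors deposited expected counts per promoter and per enhancer region, in steps of 0.5 and not normalised, as read from the values. The build mm10 and the tools HOMER 4.10, bedtools 2.30.0, STAR 2.7.9a and Trimmomatic are named per the submitters' processing notes, while their roles, the counting rule and the width of a promoter are not given in the sources used here. Levels were therefore not compared among the 10 genes, and marker levels are not corrected for width.

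Rounded counts of all 12 libraries entered a single edgeR 4.0.16 fit per table (R 4.3.3), after filterByExpr (at least 10 counts, 15 in total) and TMM scaling, with the group as factor and the quasi-likelihood test. Benjamini-Hochberg adjustment covered all features tested, with a threshold of 0.05. An SE is the size of the log2 fold change divided by the root of the quasi-likelihood F, and 95% intervals take it as normal, so both are approximate. Printed CPM are TMM-scaled, and a prior count of 2 went into log2 CPM. The fit was tested on simulated data. No 2 libraries of a group held identical counts. Enhancers were assigned within 50 kb of a RefSeq gene body on GRCm38.p6; exons and introns were not distinguished. Enhancer starts are printed as deposited, and whether they count from 0 or 1 is not stated.

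The genes, lists, motifs and tests were chosen with earlier results of these data known. Named were all 10 genes, the most open tested region near each, the 2 highest and 2 lowest genes per list for each drug, and the 3 promoters most like Cyp7a1. Alternatives were loess offsets, library totals or DESeq2 size factors as scaling, a minimum count of 30 or no filter, limma-voom (limma 3.58.1) or DESeq2 1.42.0 as test, the replicate number as a block, a distance of 20 kb, the sum of a symbol's promoters and leaving out libraries. Tables were read with the R package data.table, version 1.17.8.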

Additional observations from a re-analysis of the deposited data

Results flagged for a closer look

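Of 60 groups of 4 libraries (the promoter and the named enhancer of each gene in each group, log2 CPM), 7 held a library whose gap to its nearest neighbour divided by the group's range exceeded Dixon's 95% critical value; chance gives about 1 group in 20. Control 3 was the low library in 4 of them: the Cyp7b1 promoter (0.879) and the enhancers of Cyp27a1 (0.883), Nr1h4 (0.873) and Baat (0.90). The Nr0b2 promoter had PCN 1 low (0.853), at 61.9 CPM against 82.4 to 86.5 CPM in the other PCN libraries. The Cyp7b1 enhancer had PCN 4 high (0.87), at 11.5 CPM against 3.38 to 3.99 CPM. The Nr1h4 enhancer had atorvastatin 3 high (0.876), at 23.5 CPM against 11.9 to 12.9 CPM. Among regions of its width, atorvastatin 3 had the highest relative counts of all libraries.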

How the results depend on the processing

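Under every alternative run, 0 of the 10 genes were called. The sign was kept in 216 of 222 alternative values of the promoters for PCN against control, in 192 of 222 for atorvastatin against control and in 209 of 222 for PCN against atorvastatin, and in 155 of 160 and 143 of 160 of the named enhancers for PCN and atorvastatin against control. The values below are log2 fold changes that changed sign, and the cause was not tested. Cyp27a1 for atorvastatin was -0.00377 with DESeq2 size factors, -0.0661 with library totals, -0.0813 with loess offsets, -0.00348 with a minimum count of 30, -0.00851 with DESeq2 and -0.0514 with limma-voom. Nr1h4 for PCN against atorvastatin was -0.00619, -0.0504, -0.136, -0.00178 and -0.0051 with the first 5 of these settings, and Nr1h4 for PCN against control was -0.00037 with library totals and -0.0646 with loess offsets. Library totals moved the median of all promoters for PCN against control to -0.104, and the median of the 10 genes to 0.285. With loess offsets Baat for atorvastatin was 0.021, and its enhancer was 0.0197 with no filter.

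Without control 3 and atorvastatin 3, Akr1d1 for PCN was -0.00915, and for atorvastatin Cyp27a1 was -0.0279, Cyp7b1 -0.0373, Nr1h4 -0.0151, Akr1d1 -0.0246 and Baat 0.117. The Cyp7b1 enhancer was -0.168 for PCN and -0.366 for atorvastatin, and the Baat enhancer -0.0202 for PCN. Over all promoters this setting called 6 for PCN and 4 for atorvastatin, none of them among the 10 genes, and DESeq2 with all libraries called 1 for atorvastatin.

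Of 12 same-numbered pairs of libraries, 6 had a correlation of deviations over 0.1, namely all 6 pairs numbered 1 or 4 (0.227 to 0.50) and 0 of the 6 numbered 2 or 3 (-0.416 to 0.0954). Libraries correlated best with their own number in 9 of 24 cases. As not every pair passed and the labels tie the numbers to no shared source, the replicate number was not taken as a pairing, although part of the numbers deviate together. The replicate block called 0 promoters, the medians of the 10 genes were 0.434, 0.275 and 0.235 in the 3 comparisons, and the Baat enhancer for atorvastatin was 0.135. The replicate block without control 3 and atorvastatin 3 called 124 promoters for PCN and 57 for atorvastatin, none of them among the 10 genes. There, Akr1d1 was -0.138 for PCN, -0.12 for atorvastatin and -0.0187 for PCN against atorvastatin, and for atorvastatin Cyp27a1 was -0.092, Cyp7b1 -0.0219, Nr1h4 -0.0118 and Baat 0.00333.

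Leaving out each library in turn, the range for PCN against control was -0.0462 to 0.249 (Nr1h4) and -0.0258 to 0.333 (Akr1d1). For atorvastatin it was -0.213 to 0.201 (Cyp27a1), -0.173 to 0.485 (Cyp7b1), -0.0654 to 0.237 (Nr1h4), -0.224 to 0.148 (Baat) and -0.132 to 0.221 (Akr1d1). For PCN against atorvastatin it was -0.0216 to 0.279 (Cyp7a1), -0.182 to 0.0631 (Cyp8b1), -0.0972 to 0.146 (Nr1h4) and -0.00344 to 0.267 (Akr1d1). For enhancers it was -0.343 to 0.657 (Cyp7b1) and -0.0126 to 0.639 (Baat) for PCN, and -0.284 to 0.493 (Cyp7b1), -0.196 to 0.254 (Nr0b2), -0.469 to 0.0534 (Nr5a2), -0.382 to 0.245 (Baat) and -0.415 to 0.0461 (Slc27a5) for atorvastatin. The medians of the 10 genes ranged over 0.209 to 0.535, 0.09 to 0.37 and 0.056 to 0.304. Depth was lowest in control 4 and control 3, at 1679054 and 2368263 promoter counts.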
